A study of Homo sapiens with 6 samples.

Results

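The 9 genes described here encode the chains of MHC class I molecules and the proteins that load peptides onto them: the heavy chains HLA-B, HLA-C, HLA-E and HLA-F, the light chain B2M, the peptide transporter subunits TAP1 and TAP2, the loading adaptor TAPBP (tapasin) and NLRC5, the transcriptional coactivator of the class I genes. They were chosen by name from the 62703 genes of the deposited count tables, by Ensembl identifier, and all 9 passed the filter on low counts. Bulk RNA-seq libraries came from MDA-MB-231 cells, an established line of triple-negative breast cancer, with short hairpin RNA against RNF20 (shRNF20, 3 libraries) or a control hairpin (shControl, 3 libraries). RNF20 is a ubiquitin ligase for histone H2B, and the title of the series links it to suppression of immunity. The labels give no further treatment, and they do not say how many hairpins were used, whether the cells were pools or clones, or whether the replicates are separate cultures.

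MHC class I molecules display peptides from inside the cell to CD8 T cells. A heavy chain pairs with B2M in the endoplasmic reticulum, where tapasin holds it beside the transporter that TAP1 and TAP2 form together, and peptides cut by the proteasome are loaded there. HLA-B and HLA-C are classical heavy chains, while HLA-E presents peptides from the leaders of other class I chains to the inhibitory receptor NKG2A of natural killer cells. The genes are induced by interferon through IRF and STAT factors, by NF-kB, and by NLRC5, which binds the RFX complex on their promoters.

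Gene counts totalled 21988826 to 28265573 in the shRNF20 libraries and 23786533 to 29685306 in the shControl libraries. RNF20 itself had 14.1, 12.2 and 11.1 CPM (counts scaled to TMM library sizes) in shRNF20, against 57.8, 58.5 and 58.0 CPM in shControl. The quasi-likelihood test of edgeR was run on 15797 genes, and 58.4% passed at an adjusted p under 0.05, with 28.7% higher and 29.8% lower. The shRNF20 libraries resembled each other far more than the controls did: the mean squared deviation per gene, which is about 1 for counting noise alone, was 2.13 to 7.65 between shRNF20 libraries and 36.0 to 58.8 between shControl libraries. The share of mitochondrially encoded counts was 4.91% to 6.22% in shRNF20 and 0.934% to 1.38% in shControl; its part in the results below was not tested, and the calls of the 9 genes were as many without those genes. Of 3 markers abundant in this mesenchymal line, AXL did not pass (1304 CPM in shRNF20, 1358 CPM in shControl), while VIM (475 CPM in shRNF20, 637 CPM in shControl; -0.42, edgeR adjusted p = 0.00123) and CD44 (351 CPM in shRNF20, 822 CPM in shControl; -1.23, edgeR adjusted p = 4.50e-05) fell. Their summed level was 2120 to 2130 CPM in shRNF20 and 2670 to 3000 CPM in shControl. Adding the strand columns gave 4.4 times the counts of VIM, so its level and change, and this sum, are uncertain. The 5 luminal and epithelial markers that this line lacks or holds at low levels summed to 38.7 to 40.7 CPM in shRNF20 and 35.2 to 45.6 CPM in shControl; ESR1 (3.76, at 1.44 CPM in shRNF20) and EPCAM (0.64) rose, CDH1 fell (-1.38), GATA3 did not pass and PGR was too low to test. The 6 fibroblast and endothelial markers summed to 30.7 to 32.7 CPM in shRNF20 and 18.2 to 21.6 CPM in shControl, mostly COL1A1, which rose (1.19), while PECAM1 fell (-2.95). Of 9 leukocyte markers, CD2 and MS4A1 were among those at 0 in every library and PTPRC stayed below 1 CPM. The summed level of the 9 was 7.40 to 8.58 CPM in shRNF20 and 36.9 to 46.6 CPM in shControl, nearly all of it LAPTM5. The part of these markers in the results was not tested.

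Of the 9 class I genes 3 were lower in shRNF20 and 0 were higher. HLA-E fell to a level 2.75-fold below shControl, and NLRC5 (1.54-fold) and TAP2 (1.65-fold) also fell. The share of genes called lower was 33.3% (3 of 9), close to the 29.8% of all genes, so the count says nothing particular about class I genes. The median log2 fold change of the 9 was -0.63, against -0.01 for all genes tested, and was -0.30 without shControl replicate 1. In HLA-E, TAP2 and NLRC5 every shRNF20 library lay below every shControl library, a pattern that 32.8% of all genes tested shared; the reverse, every shRNF20 library above every shControl library, held for 0 of the 9 and 33.5% of all. The count of 3 rose to 8 without shControl replicate 3, when 28.4% of all genes were called lower, and dropped to 1 (HLA-E) with the shRNF20 libraries summed to 1 sample, when 9.28% of all genes were called lower. In bulk RNA, fewer cells with a transcript and less of it per cell cannot be told apart.

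**Figure D1:**
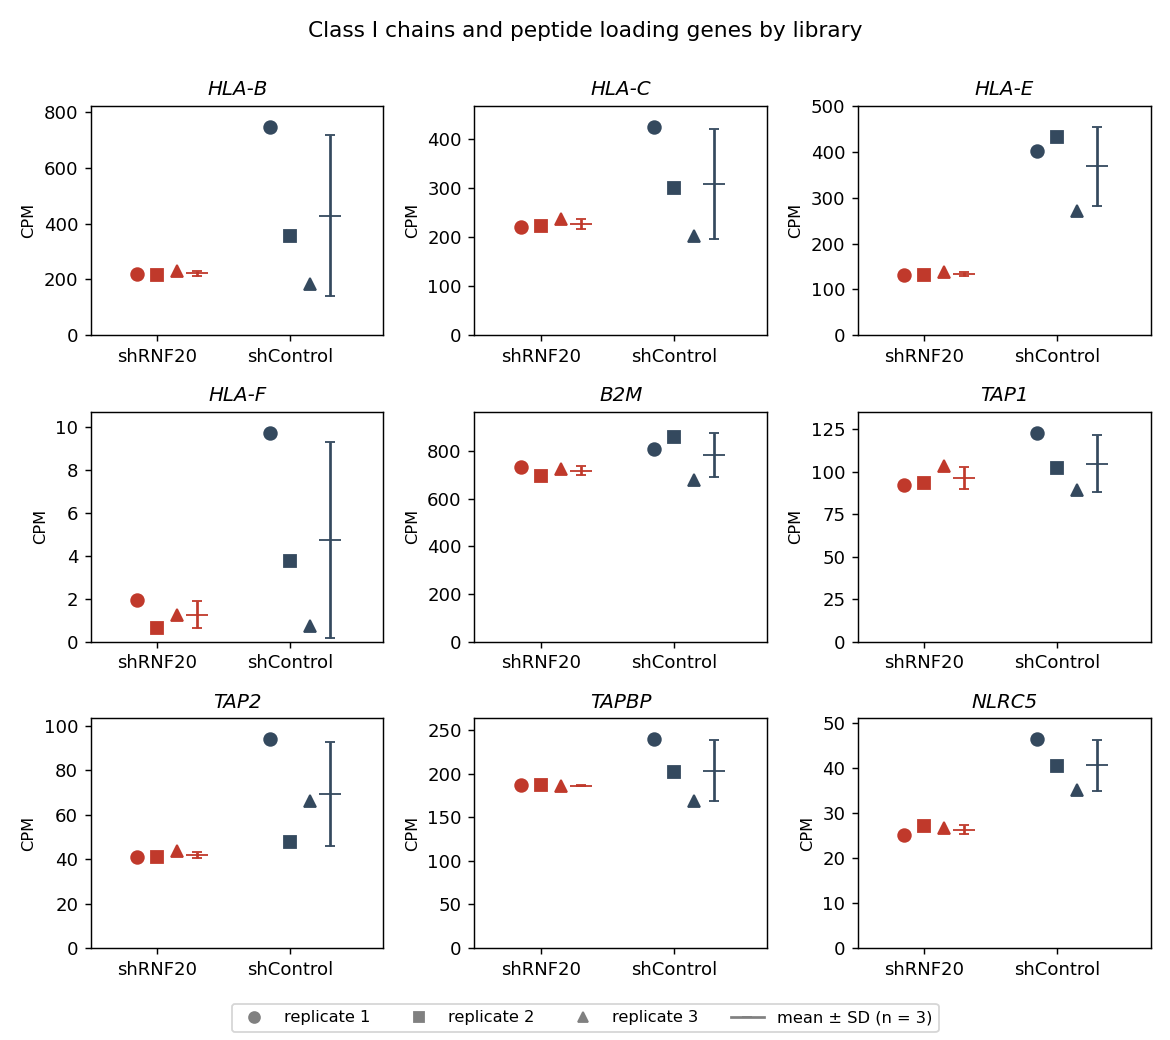
CPM of each gene in each library, with shRNF20 left of shControl; symbols mark the replicate, and the bar beside them is the mean ± SD of 3 libraries. The shRNF20 points lie close together, while the shControl points of HLA-B run over a 4.03-fold range and those of HLA-F over a 13.4-fold range.

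Among the heavy chains, HLA-E (ENSG00000204592.9, GRCh38 chromosome 6, 30489467 to 30494205, plus strand) had 132, 132 and 138 CPM in shRNF20, against 402, 433 and 271 CPM in shControl. All 3 shRNF20 libraries were below the lowest control. The means were 134 ± 3.72 CPM in shRNF20 and 369 ± 86.1 CPM in shControl (SD, n = 3 each), a log2 fold change of -1.46 (SE 0.16, edgeR adjusted p = 0.000111). HLA-E passed under all 17 alternative settings and libraries left out, with log2 fold changes of -1.65 to -1.35.

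HLA-B (ENSG00000234745.14, chromosome 6, 31269491 to 31357188 as annotated, which reaches into HLA-C, minus strand) had 219, 214 and 232 CPM in shRNF20, against 748, 354 and 185 CPM in shControl. The shRNF20 libraries fell inside the control range, above shControl replicate 3 and below the other controls. The log2 fold change of -0.95 (SE 0.41) did not pass (edgeR adjusted p = 0.0745; unadjusted p = 0.0466), and its 95% interval ran from -1.89 to -0.02. Without shControl replicate 1 it was -0.30 (edgeR adjusted p = 0.258), and without shControl replicate 3 it was -1.32 and passed (edgeR adjusted p = 0.00472). The range of HLA-B among controls was 4.03-fold, and 3.39% of genes detected in every library ranged more widely there. Among shRNF20 libraries HLA-B ranged 1.08-fold. The median gene ranged 1.12-fold among shRNF20 libraries and 1.32-fold among controls. HLA-B and HLA-C share long identical stretches with each other and with other class I genes, and reads that map to several places were not counted, so the counts of both are uncertain.

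HLA-C (ENSG00000204525.18, chromosome 6, 31268749 to 31272130, minus strand) had 221, 222 and 238 CPM in shRNF20, against 426, 300 and 203 CPM in shControl. Here too shControl replicate 3 was the lowest of the 6 libraries and shControl replicate 1 the highest. The log2 fold change was -0.45 (SE 0.22, 95% interval -0.95 to 0.06, edgeR adjusted p = 0.112), or -0.16 without shControl replicate 1 and -0.68 without shControl replicate 3, when it passed (edgeR adjusted p = 0.00503). HLA-F (ENSG00000204642.14, chromosome 6, 29722775 to 29738528, plus strand), a nonclassical chain of low abundance, had 50, 14 and 35 counts in shRNF20, against 287, 95 and 17 counts in shControl. That is 1.92, 0.636 and 1.23 CPM in shRNF20, against 9.72, 3.75 and 0.724 CPM in shControl, and the groups overlapped. Its log2 fold change of -1.90 had an SE of 0.77 and an edgeR adjusted p of 0.0612; without shControl replicates 1 and 3 in turn it was -0.83 and -2.41. In GENCODE 29 its exons share bases with genes on the opposite strand, and the counts do not use strand. HLA-F also passed when the counts of both strands were added (-1.91, edgeR adjusted p = 0.0394).

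B2M (ENSG00000166710.23, chromosome 15, 44711487 to 44718877, plus strand), the light chain that every class I heavy chain needs, had 733, 696 and 726 CPM in shRNF20, against 809, 862 and 681 CPM in shControl. The groups overlapped, and the log2 fold change was -0.13 (SE 0.09, edgeR adjusted p = 0.274). Its 95% interval, -0.34 to 0.09, leaves room for a modest fall and excludes one of the size seen in HLA-E.

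The transporter subunits gave different values. TAP2 (ENSG00000204267.19, chromosome 6, 32821833 to 32838780, minus strand) had 41.1, 40.9 and 43.6 CPM in shRNF20, against 93.8, 47.5 and 65.9 CPM in shControl. The groups did not overlap, although shControl replicate 2 came close to the shRNF20 libraries. The log2 fold change was -0.72 (SE 0.21, edgeR adjusted p = 0.0160). It was -0.46 without shControl replicate 1, still passing, and summing the shRNF20 libraries ended the call (-0.70, edgeR adjusted p = 0.199).

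TAP1 (ENSG00000168394.13, chromosome 6, 32845209 to 32853978, minus strand) had 92.0, 93.4 and 103 CPM in shRNF20, against 123, 102 and 89.3 CPM in shControl. The groups overlapped, with shControl replicate 3 again lowest. The log2 fold change was -0.12 (SE 0.12, 95% interval -0.39 to 0.14, edgeR adjusted p = 0.389). TAPBP (ENSG00000231925.14, chromosome 6, 33299694 to 33314387, minus strand) had 186, 187 and 185 CPM in shRNF20, against 239, 202 and 169 CPM in shControl. Its log2 fold change was -0.13 (SE 0.12, 95% interval -0.39 to 0.14, edgeR adjusted p = 0.373), and the groups overlapped.

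NLRC5 (ENSG00000140853.17, chromosome 16, 56989485 to 57083531, plus strand), the coactivator, had 25.1, 27.1 and 26.6 CPM in shRNF20, against 46.3, 40.3 and 35.0 CPM in shControl. Every shRNF20 library was below every control. The means were 26.3 ± 1.05 CPM in shRNF20 and 40.5 ± 5.67 CPM in shControl (SD, n = 3 each), a log2 fold change of -0.63 (SE 0.11, edgeR adjusted p = 0.00173). Summing the shRNF20 libraries ended the call (-0.60, edgeR adjusted p = 0.0887).

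**Figure D2:**
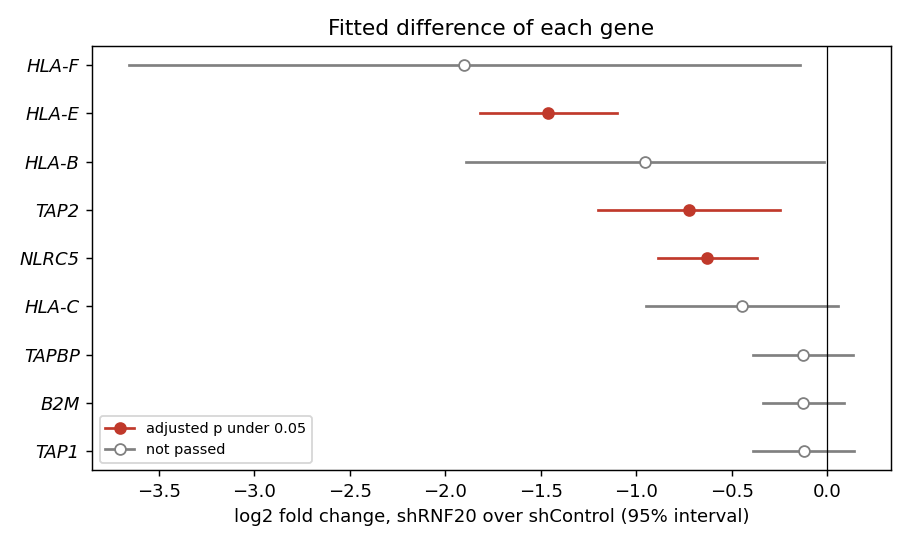
Fitted log2 fold change of each gene (shRNF20 over shControl) with its 95% interval, not adjusted for the number of genes tested; filled points passed at an adjusted p under 0.05. HLA-E, TAP2 and NLRC5 passed, and the intervals of HLA-F (-3.66 to -0.14) and HLA-B (-1.89 to -0.02) were the widest.

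Across the 9 genes the control libraries were not alike. shControl replicate 1 had the highest control level of 7 of the 9 genes (all but HLA-E and B2M), and shControl replicate 3 had the lowest of 8 (all but TAP2). For HLA-B, HLA-C, B2M, TAP1 and TAPBP, shControl replicate 3 was below every shRNF20 library. Without it, 8 genes were called lower, all but TAP1 (-0.23, edgeR adjusted p = 0.0865). Without shControl replicate 1, HLA-E, TAP2 and NLRC5 stayed the called genes and TAP1 and TAPBP were each at -0.01.

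Levels between genes were compared per length, as CPM per kilobase of the principal transcript in GENCODE 29. In shRNF20 the order was B2M (421 ± 11.6 CPM per kilobase), HLA-C (148 ± 6.31), HLA-B (143 ± 5.71), TAPBP (98.6 ± 0.412), HLA-E (51.6 ± 1.43), TAP1 (32.5 ± 2.12), TAP2 (16.8 ± 0.601), NLRC5 (3.85 ± 0.154) and HLA-F (0.773 ± 0.394; SD, n = 3 each). HLA-C and HLA-B did not differ beyond their SD there. In shControl the order was B2M (460 ± 54.5), HLA-B (277 ± 186), HLA-C (201 ± 72.9), HLA-E (142 ± 33.1), TAPBP (108 ± 18.6), TAP1 (35.4 ± 5.70), TAP2 (27.7 ± 9.34), NLRC5 (5.94 ± 0.83) and HLA-F (2.89 ± 2.80). HLA-B, HLA-C and HLA-E overlapped within their SDs in shControl. HLA-E ranked below TAPBP in shRNF20, beyond the SDs, and above it in shControl, within them. Adding the strand columns gave 1.67 times the counts of TAPBP and left those of HLA-E as they were. The order of HLA-E and TAPBP is therefore uncertain. The levels of HLA-F (2.32 times), HLA-B and TAP1 (1.31 times each) against other genes carry the same limit. TAP2 shares 32.3% of its exonic bases with a gene on its own strand in GENCODE 29, so its level against other genes is uncertain too.

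Ratios within a library do not depend on the scaling between libraries. Relative to B2M, the log2 ratio of HLA-E was -2.48, -2.40 and -2.39 in shRNF20, against -1.01, -0.99 and -1.33 in shControl, a difference of -1.31. The ratio of NLRC5 to B2M was -4.87, -4.68 and -4.77 in shRNF20, against -4.13, -4.42 and -4.28 in shControl, a difference of -0.50. In both the groups were apart; an exact permutation test, two-sided, gave p = 0.1, the least that 3 libraries against 3 allow (0.4 after adjustment over the 8 ratios). For TAP1 and TAPBP the difference was 0.01 each (exact permutation p = 1), and for HLA-B, HLA-C, TAP2 and HLA-F the groups overlapped (exact permutation p = 0.3 to 0.5).

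Shares of the summed counts of the 4 heavy chains give their balance within a library. HLA-E made up 23.0%, 23.2% and 22.7% of their sum in shRNF20, against 25.4%, 39.7% and 41.1% in shControl. HLA-C made up 38.5%, 39.0% and 39.1% in shRNF20, against 26.9%, 27.5% and 30.7% in shControl. The groups did not overlap for either share, with an exact two-sided permutation p of 0.1 each (0.2 adjusted over the 4 shares). For HLA-E the gap to shControl replicate 1 was small. HLA-B took 37.6% to 38.2% in shRNF20 and 28.1% to 47.1% in shControl (exact permutation p = 0.7).

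**Figure D3:**
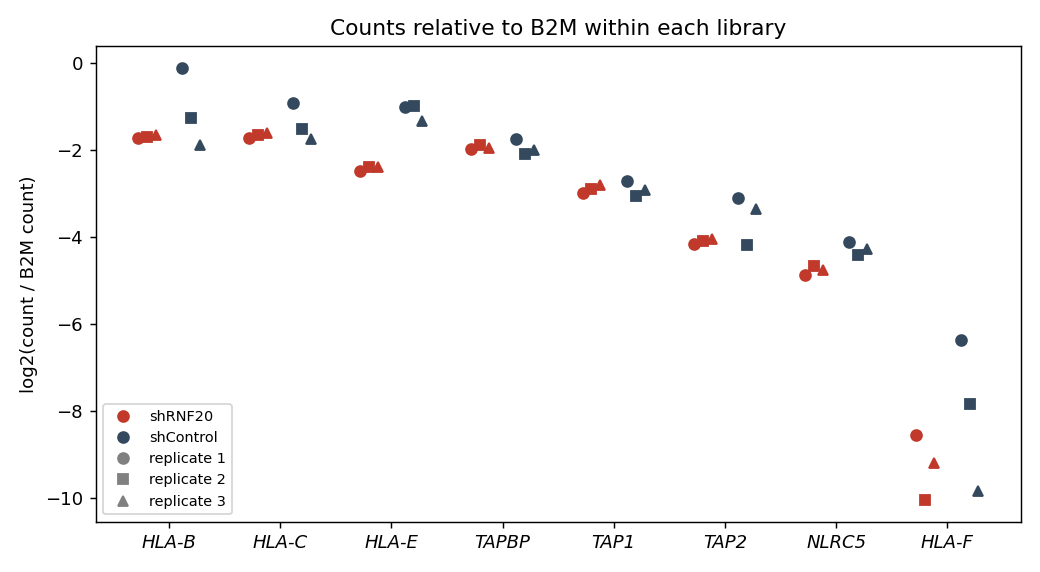
Log2 ratio of each gene's count to the B2M count of the same library (0.5 added to each count), shRNF20 left of shControl for each gene; symbols mark replicates. The HLA-E ratios are -2.48 to -2.39 in shRNF20 and -1.33 to -0.99 in shControl, and those of TAP1 and TAPBP overlap.

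Promoter windows show which known class I control elements are spelled out in the reference sequence of these genes. RefSeq entries on GRCh38.p14, from 250 bases before to 50 bases after the start, matched 7 of the 9 genes, all but HLA-E and NLRC5. Of the called genes only TAP2 had a window, so called genes cannot be compared with the others here. The windows are chr6:31357130-31357429 (minus strand) for HLA-B, chr6:31272043-31272342 (minus strand) for HLA-C, chr6:29723184-29723483 (plus strand) for HLA-F, chr15:44711267-44711566 (plus strand) for B2M, chr6:32853655-32853954 (minus strand) for TAP1 (the upstream of its 2 starts) and chr6:32838690-32838989 (minus strand) for TAP2. They are shown because HLA-B, HLA-C and HLA-F varied widely among controls, B2M did not, and TAP2 passed the test while TAP1 did not. Capitals mark the core letters of an interferon regulatory factor site (AANNGAAA) and of a cyclic AMP response element (TGACG), each on either strand. Overlapping matches of AANNGAAA run together.
HLA-B: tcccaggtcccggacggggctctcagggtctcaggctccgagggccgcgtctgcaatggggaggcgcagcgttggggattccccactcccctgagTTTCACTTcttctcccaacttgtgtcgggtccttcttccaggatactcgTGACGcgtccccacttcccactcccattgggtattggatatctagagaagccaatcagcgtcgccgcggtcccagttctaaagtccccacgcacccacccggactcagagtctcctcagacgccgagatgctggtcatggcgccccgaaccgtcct
HLA-C: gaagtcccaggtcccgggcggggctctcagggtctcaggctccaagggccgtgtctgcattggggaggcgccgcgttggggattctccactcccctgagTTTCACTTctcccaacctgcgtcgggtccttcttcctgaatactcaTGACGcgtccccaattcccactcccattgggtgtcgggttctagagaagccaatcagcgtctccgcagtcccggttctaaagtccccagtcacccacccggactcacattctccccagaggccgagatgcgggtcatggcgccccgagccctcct
HLA-F: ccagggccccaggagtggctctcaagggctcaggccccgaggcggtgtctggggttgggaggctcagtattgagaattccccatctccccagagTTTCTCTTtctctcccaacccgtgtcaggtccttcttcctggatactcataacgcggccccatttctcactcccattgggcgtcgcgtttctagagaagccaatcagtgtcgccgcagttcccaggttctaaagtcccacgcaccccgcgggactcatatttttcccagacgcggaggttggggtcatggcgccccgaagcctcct
B2M: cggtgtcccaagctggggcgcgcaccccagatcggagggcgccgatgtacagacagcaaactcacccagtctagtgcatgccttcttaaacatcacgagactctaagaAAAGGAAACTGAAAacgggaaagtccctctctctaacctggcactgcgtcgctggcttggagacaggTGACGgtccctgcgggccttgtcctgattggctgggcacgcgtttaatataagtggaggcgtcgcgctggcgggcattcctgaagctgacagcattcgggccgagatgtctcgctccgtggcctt
TAP1: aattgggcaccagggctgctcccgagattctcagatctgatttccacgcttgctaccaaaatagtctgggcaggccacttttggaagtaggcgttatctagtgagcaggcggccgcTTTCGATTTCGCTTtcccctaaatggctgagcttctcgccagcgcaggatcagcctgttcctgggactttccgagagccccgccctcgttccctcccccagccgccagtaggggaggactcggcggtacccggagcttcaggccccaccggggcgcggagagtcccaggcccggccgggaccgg
TAP2: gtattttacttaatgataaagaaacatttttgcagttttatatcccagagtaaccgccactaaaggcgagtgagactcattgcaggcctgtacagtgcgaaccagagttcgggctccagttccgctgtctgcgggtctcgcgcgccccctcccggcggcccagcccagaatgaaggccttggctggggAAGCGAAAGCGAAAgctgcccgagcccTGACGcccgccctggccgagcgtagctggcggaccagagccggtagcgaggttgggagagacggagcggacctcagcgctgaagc

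The interferon regulatory factor core occurred in all 7 windows, and in 22.8% of the 35116 promoter windows of the RefSeq table. It began 155, 151 and 156 bases before the start in HLA-B, HLA-C and HLA-F. In each of B2M, TAP1, TAP2 and TAPBP it gave 2 matches that overlap each other, so they form a single stretch. TGACG was found in HLA-B, HLA-C, B2M and TAP2 (24.6% of all windows hold it), and CCAAT, the letters bound by NF-Y, in HLA-B, HLA-C, HLA-F, B2M and TAP1 (34.6%). No window of the 7 held the STAT letters TTCNNNGAA (7.66% of all). HLA-B and HLA-C were identical at 88.5% of aligned positions, and at 79.2% and 78.5% with HLA-F. Every motif was searched on both strands. These are matches of letters in the reference sequence, not sites shown to be bound.

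**Figure D4:**
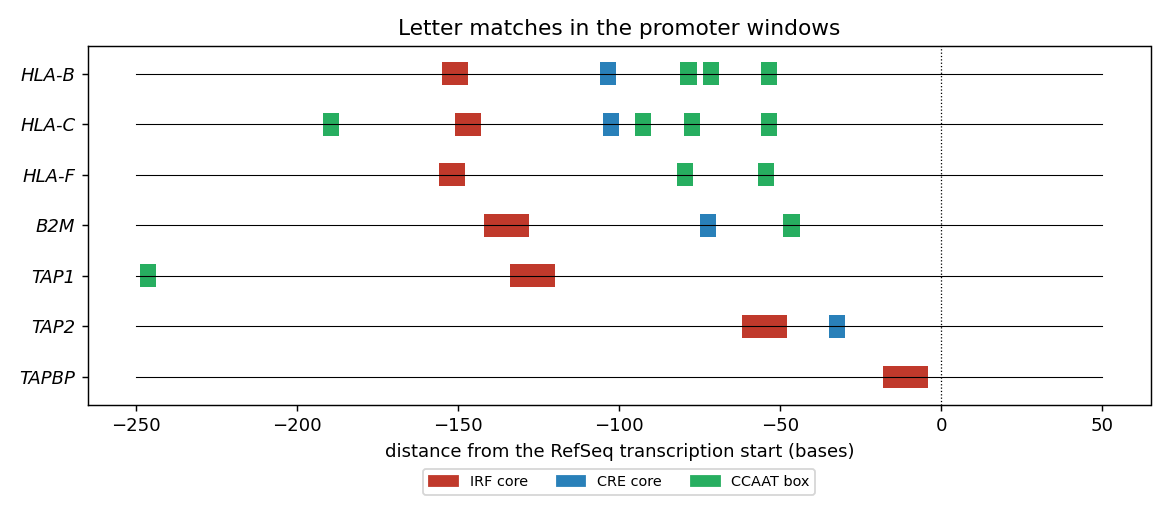
Positions of letter matches in the 7 promoter windows, as distance from the RefSeq start in bases; red is AANNGAAA, blue TGACG and green CCAAT. All 7 windows hold a red match, and the 3 heavy chains hold it 151 to 156 bases before the start.

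The genes that feed and assist loading moved in both directions. The counts of the lists below stand beside 28.7% higher and 29.8% lower among all genes tested, or 58.4% in either direction. The share called was 70% of the loading list, 60% of the proteasome list, 61.5% of the regulators and 72.7% of the interferon list. It was 70% of the turnover list, 100% of the 7 class I-like genes tested and 66.7% of the 3 pseudogenes tested. Nothing particular to a list is drawn from these shares. Of 10 loading chaperones and peptide-trimming enzymes, 5 fell and 2 rose (median log2 fold change -0.14). Without shRNF20 replicate 2, 1 rose. UGGT1, which returns unloaded class I to the folding cycle, had 82.4 ± 6.17 CPM in shRNF20 and 174 ± 21.0 CPM in shControl (-1.08, SE 0.10, edgeR adjusted p = 6.64e-05). CALR, the chaperone of the loading complex (-0.56), and the peptidases NRDC (-0.57) and THOP1 (-0.69) fell as well. ERAP2, an aminopeptidase that trims peptides in the endoplasmic reticulum, rose (0.71, SE 0.14, edgeR adjusted p = 0.00244).

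Of 10 proteasome genes, 4 rose and 2 fell (1 fell without shRNF20 replicate 2). The 2 that fell were the interferon-inducible subunits PSMB8 (38.9 ± 0.541 CPM in shRNF20, 56.1 ± 6.56 CPM in shControl; -0.53, SE 0.10, edgeR adjusted p = 0.00190) and PSMB9 (13.6 ± 1.07 CPM in shRNF20, 22.0 ± 6.54 CPM in shControl; -0.70, SE 0.21, edgeR adjusted p = 0.0188). The other inducible subunit, PSMB10, was at 0.18 and did not pass. Of their constitutive counterparts, PSMB6 (0.55) and PSMB7 (0.32) rose and PSMB5 was at 0.14 without passing, and the assembly factor POMP (0.81) and the activator subunit PSME3 (0.56) rose. PSMB9 and TAP1 start 488 bases apart on opposite strands. The change of PSMB9 passed and that of TAP1 did not; the difference between them was not tested.

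Among 13 regulators of class I promoters, 5 fell and 3 rose (median -0.26); 3 fell without shRNF20 replicate 2 and 8 without shControl replicate 2. RFX5, the DNA-binding subunit of the RFX complex that recruits NLRC5, fell (-0.61, SE 0.07, edgeR adjusted p = 0.000192). It had 47.1 ± 0.799 CPM in shRNF20 and 72.1 ± 3.70 CPM in shControl. Its partner RFXANK also fell (-0.45, edgeR adjusted p = 0.00677). RFXAP, of the same complex, did not pass, and its groups overlapped (-0.29, edgeR adjusted p = 0.251). IRF1, an interferon-induced activator of class I genes, moved the other way, with 51.4 ± 2.13 CPM in shRNF20 and 24.9 ± 3.89 CPM in shControl (1.04, SE 0.12, edgeR adjusted p = 0.000143). CREB1 (0.43) and the NF-kB subunit RELA (0.45) rose too. Adding the strand columns gave 1.75 times the counts of IRF1 and 1.74 times those of RFXANK, so their levels and changes are uncertain. With those columns added, 3 regulators were lower, when 28.9% of all genes were called lower.

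Of 11 interferon receptor and signalling genes, 6 rose and 2 fell, against 28.7% and 29.8% of all genes (median 0.43; 1 fell without shRNF20 replicate 1). IFNGR1, a chain of the interferon gamma receptor, had 63.4 ± 3.80 CPM in shRNF20 and 41.2 ± 0.364 CPM in shControl (0.62, SE 0.08, edgeR adjusted p = 0.000220). The signal transducer STAT2 (0.60) rose as well. The kinase JAK2 fell (-0.71, SE 0.14, edgeR adjusted p = 0.00311). IFNAR2, a chain of the type I interferon receptor, had few unstranded counts. It had 2.10 ± 0.442 CPM in shRNF20 and 0.668 ± 0.174 CPM in shControl, and rose (1.64). Adding the strand columns gave 8.76 times its counts, so its level and change are uncertain.

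Of 9 class I-like genes 7 were abundant enough to test, and 5 of these fell and 2 rose, against 29.8% and 28.7% of all genes. MR1, which presents microbial metabolites, fell (19.5 ± 2.07 CPM in shRNF20, 39.0 ± 7.97 CPM in shControl; edgeR adjusted p = 0.000770), as did PROCR (-0.99), the protein C receptor, and HFE (-0.55), the regulator of iron uptake. The stress-induced NKG2D ligands MICA (0.80, SE 0.10, edgeR adjusted p = 0.000238) and MICB (0.67) rose. Of 10 genes for turnover and export of class I, 6 rose and 1 fell, against 28.7% and 29.8% of all genes. SUSD6 (0.44), TMEM127 (0.30) and WWP2 (0.48), which act together to send class I molecules to lysosomes, all rose. The chaperone-linked ubiquitin ligase STUB1 fell (-1.24, SE 0.09, edgeR adjusted p = 1.89e-05). Adding the strand columns gave 3.32 times the counts of STUB1, so its level and change are uncertain. The count of 6 was 2, 3 and 2 without shRNF20 replicates 1, 2 and 3, when 22.2%, 22.3% and 22.6% of all genes were called higher. Of 13 class I pseudogenes 3 were tested, with HLA-K lower (-0.86) and HLA-L higher (1.25); they share sequence with the heavy chains and their counts are uncertain. With the strand columns added, 2 pseudogenes were lower and 0 higher, and without shControl replicate 2, 2 were higher.

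**Figure D5:**
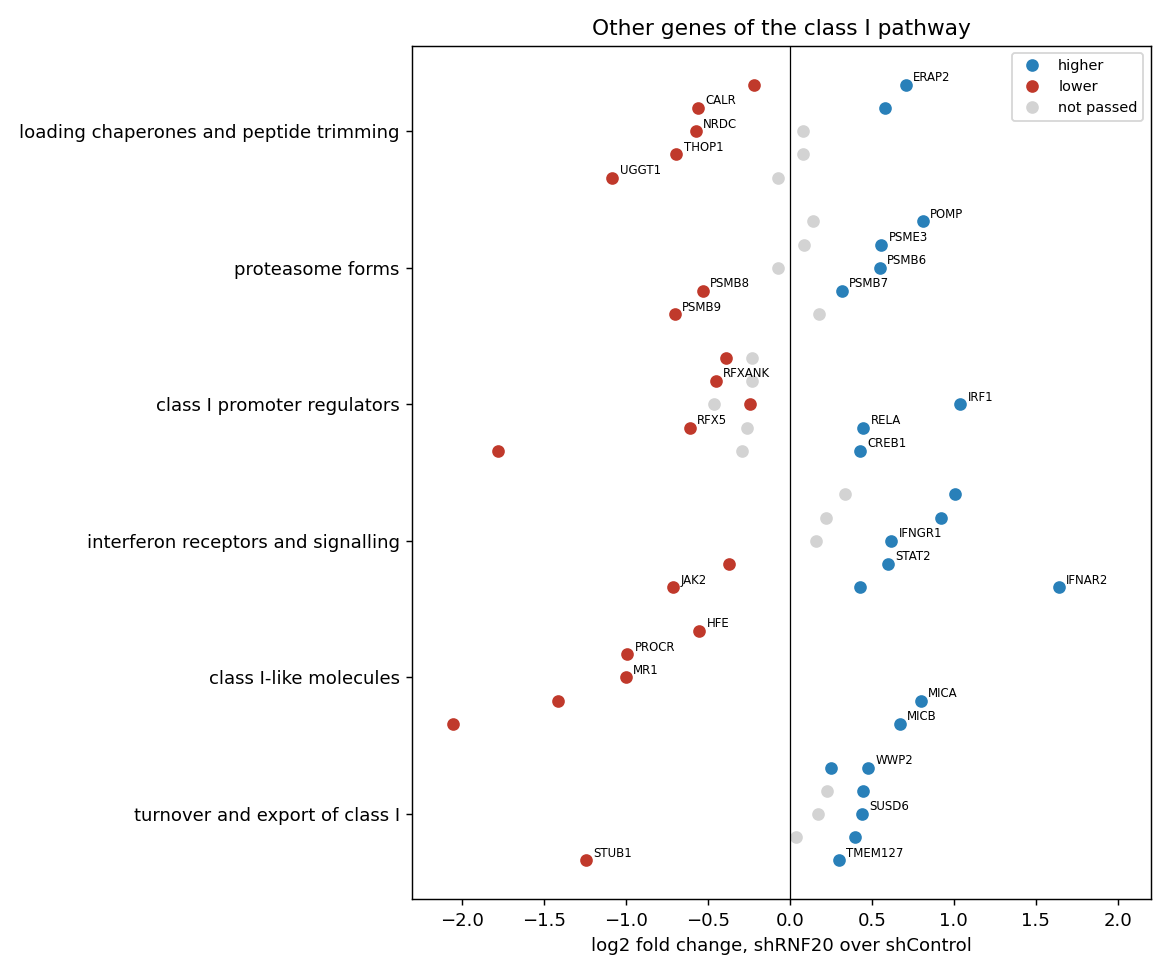
Log2 fold change (shRNF20 over shControl) of the tested genes of 6 lists around the class I pathway, 1 row a list; blue passed as higher, red passed as lower, grey did not pass, labels mark genes given in the text, and vertical offsets only separate points. PSMB8 and PSMB9 lie left of 0 and PSMB6 and PSMB7 right of it, and SUSD6, TMEM127 and WWP2 lie between 0.30 and 0.48.

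HLA-F and TAPBP bound the stretch of chromosome 6 (29722775 to 33314387) that holds 7 of the 9 genes. Of 110 other genes tested there, 50 were lower and 24 higher, against 29.8% and 28.7% of all genes. In either direction 67.3% were called, against 58.4% of all genes, and the median log2 fold change was -0.32. The smallest p-values belonged to genes of other functions, such as the RNA helicase DDX39B (165 ± 16.8 CPM in shRNF20, 43.7 ± 1.35 CPM in shControl; 1.91) and PRRC2A (-1.61).

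The genes whose centred log2-CPM over the 6 libraries lay nearest to HLA-E were NEURL1B (distance 0.146), FRMD4A (0.220), CERCAM (0.234), GSN (0.258) and ARHGEF4-AS1 (0.261). NEURL1B had 17.7, 16.2 and 16.4 CPM in shRNF20, against 49.4, 54.4 and 32.6 CPM in shControl, with shControl replicate 3 the lowest control as in HLA-E. Nearness over 6 libraries in 2 groups is a description only.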

How the data were processed

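The authors deposited, per library, raw read counts per gene (unstranded and for each strand) from reads aligned to hg38 with STAR 2.7.11a after FastQC 0.12.1, per the submitters' processing notes. The annotation release is not stated by these notes. The strand columns were equal (50.1% to 50.2%), so unstranded counts were used. Lines naming no gene held 20.9% to 24.1% of reads and were left out. Reads over exons of several genes (10.7% to 11.2% of all) and multi-mapped reads are outside the gene counts. Adding the strand columns gave 2.32 times the counts of HLA-F, 1.67 times those of TAPBP and 1.31 times those of HLA-B and TAP1; in GENCODE 29, HLA-F, HLA-B and TAP1 share exonic bases with genes on the opposite strand, and TAP2 shares 32.3% of its exonic bases with a gene on its own strand. Among other genes named, the factor was largest for IFNAR2 (8.76), HLA-L (6.59), VIM (4.4) and STUB1 (3.32). Smaller factors included those of PROCR (1.82), IRF1 (1.75), RFXANK (1.74), ARHGEF4-AS1 (1.74), HLA-K (1.72), LAPTM5 (1.59) and FRMD4A (1.58). The levels and changes of these genes are uncertain too. Class I genes are polymorphic and alike, so reads of the alleles in this line may map unequally, which could affect levels between HLA genes.

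Low genes were removed with filterByExpr (minimum count 10), TMM factors were computed, and edgeR 4.0.16 in R 4.3.3 gave the test (quasi-likelihood, robust, Benjamini-Hochberg over 15797 genes, threshold 0.05). SE is the log2 fold change divided by the root of F. With no label naming separate cultures, each p-value reflects just how these libraries spread, which may be technical. Symbols matched 62686 of 62703 genes, and positions and lengths are from GENCODE 29. Alternatives used DESeq2 1.42.0 and limma 3.58.1 among others. The genes and lists were chosen with earlier results of these data known. Genes named from a list are up to 4 of its called members with the smallest p, plus the partners of the inducible proteasome subunits. ERAP2, RFXANK, RFXAP, HFE, and the genes named for markers and for the chromosome 6 stretch, were picked after their values were seen.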

Additional observations from a re-analysis of the deposited data

How the results depend on the processing

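Of the 9 genes, HLA-E passed under all 17 settings, NLRC5 and TAP2 under 16, HLA-F under 2, HLA-B, HLA-C, B2M and TAPBP under 1 each and TAP1 under 0; the sign stayed negative throughout. RLE, upper quartile and total count scaling, DESeq2, limma-voom, both filters on low counts and removal of mitochondrial genes left 3 called. The same replicate number did not pair libraries (correlations of deviations -0.02, 0.03 and 0.03), and with replicate number as a block 3 were called, among 4418 genes higher and 4518 lower. Adding the strand columns made HLA-F pass (-1.91), with 3 promoter regulators lower and 0 pseudogenes higher and 2 lower; limma-voom also gave 3 regulators lower, and no filter gave 2 pseudogenes higher. With the shRNF20 libraries summed to 1 sample, 1 gene was called and NLRC5 (-0.60) and TAP2 (-0.70) no longer passed; there 1753 of all genes were higher and 1619 lower, 1 regulator was higher and 1 lower, 0 pseudogenes were higher and 0 lower, 2 class I-like genes were lower, 1 interferon gene was higher and 0 lower, 0 chaperone and trimming genes were higher and 1 lower, 12 genes of the chromosome 6 stretch were higher and 14 lower, 2 proteasome genes were higher and 0 lower, and 0 turnover genes were higher. That fit has fewer samples, and the cause of other changes was not tested.

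With each library left out in turn, 3 to 8 of the 9 genes were called lower, with 24% to 30.8% of all genes called lower in those fits. Log2 fold changes ran from -1.32 to -0.30 for HLA-B, -0.68 to -0.16 for HLA-C, -2.41 to -0.83 for HLA-F, -0.22 to -0.07 for B2M and -0.25 to -0.01 for TAPBP; the 8 came without shControl replicate 3. The HLA-B share of heavy chain counts differed by -1.87 to 7.65 percentage points, and the ratios of TAP1 and TAPBP to B2M by -0.08 to 0.10 and -0.06 to 0.11. Regulators numbered 3 to 8 lower, pseudogenes 1 to 2 higher, interferon genes 1 to 2 lower, chaperone and trimming genes 1 to 2 higher, proteasome genes 1 to 2 lower and turnover genes 2 to 7 higher. The median of the 9 genes ran from -0.73 to -0.30. HLA-F had 14 to 50 counts a library in shRNF20 and 17 to 287 in shControl, the lowest depth of the 9.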
